A study of Mus musculus with 27 samples.

Results

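Gene expression in the olfactory mucosa behind a closed nostril was set against that of mucosa from sham-treated mice. The samples were chosen by their titles, as all arrays named occluded and all arrays named normal. These are 18 of the 27 arrays of the series, 9 in each group, and each group holds 3 biological replicates with 3 repeat arrays of each. All mice were females of the FVB strain, 25 days old, and the labels name no transgene or mutation. The occluded mice had 1 nostril closed by cautery (unilateral naris occlusion), and the occluded samples are the mucosa of that side. The normal samples are from other mice, which by the treatment protocol had a sham cautery at the muzzle, although the design text calls their mucosa untreated. The remaining 9 arrays of the series are the open side of the occluded mice. They entered the normalization and the estimate of the spread behind each p-value, and their values are given below only beside the others. The interval between cautery and dissection, and whether a replicate pooled mice, are not stated in the labels. The p-values measure the spread between samples that the labels call biological replicates.

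In an olfactory neuron an odorant receptor in the cilia activates the G protein subunit encoded by Gnal, adenylyl cyclase 3 makes cAMP, and the cyclic nucleotide-gated channel lets in sodium and calcium. This electrical activity also regulates genes, among them calcium-binding proteins and the adhesion and guidance molecules by which axons with the same receptor gather in the olfactory bulb. Closing a nostril takes most airborne odor from the mucosa on that side, and the procedure is widely used to find genes that depend on odor-driven activity.

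Both groups carried the markers of olfactory mucosa. Omp, the classical marker of mature neurons of this epithelium, was saturated on all 18 arrays at its brighter probe, and its other probe, with no saturated array, differed by -0.06 ± 0.30. Cyp2g1, an enzyme of the supporting (sustentacular) cells, had a mean log2 intensity of 14.02 on the occluded side and 13.98 in normal mucosa. Its occluded replicates 1, 2 and 3 measured 13.04, 14.41 and 14.60, and its normal ones 13.71, 14.07 and 14.16, so occluded replicate 1 was the lowest. Over all probes, occluded replicate 1 correlated at 0.965 and 0.970 with occluded replicates 2 and 3, which correlated at 0.982 with each other. The array median intensity lay between 131 and 274 over the 18 arrays. Between 8.57% and 19.8% of an array's 29922 probes lay below its noise limit, which is 3 times the root mean square of the values below 0. Values are normalized log2 intensity, averaged over the 3 arrays of a biological replicate and listed as replicates 1, 2 and 3, and differences are occluded minus normal with their standard error (SE). In bulk tissue, fewer cells of a type and less RNA per cell cannot be told apart.

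1 normal sample, replicate 2, stood apart in cartilage genes, which were picked after their values were seen. Over all probes, normal replicate 2 correlated at 0.971 and 0.978 with normal replicates 1 and 3, which correlated at 0.976 with each other. Col2a1, which encodes the main collagen of cartilage, measured 8.53, 13.33 and 9.23 in the normal replicates and 8.58, 8.99 and 8.50 on the occluded side. Matn1, a cartilage matrix protein, measured 4.13, 11.79 and 3.38 in the normal replicates and 4.01, 4.01 and 3.62 on the occluded side. The cartilage proteoglycan gene Acan measured 7.56, 10.67 and 7.53 in normal mucosa and 8.10, 7.27 and 7.20 on the occluded side. Normal replicate 2 was thus far above the other 5 samples for these 3 genes, as the plot of cartilage and bone genes shows. Of the list of bone and cartilage genes, 27 were measured, and their summed linear level ran from 102720 to 155070 on the occluded side and from 115600 to 237110 in normal mucosa. No member was below the noise limit on all 18 arrays. The list's median difference was -0.42, with 23 members below 0, against 0.01 over the representative probes of all 16637 named genes. Without normal replicate 2 it was -0.05, with 18 members below 0. The same holds for the list of fibroblast genes, which had a median of -0.30 over 15 genes, with summed levels of 99222 to 138990 against 82366 to 205260, and a median of 0.04 without normal replicate 2. Its part in the results below was not tested beyond the values given without that sample. The array labels of normal replicate 3 also carry a number apart from that of the other 24 arrays, and values without it are given as well.

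**Figure D1:**
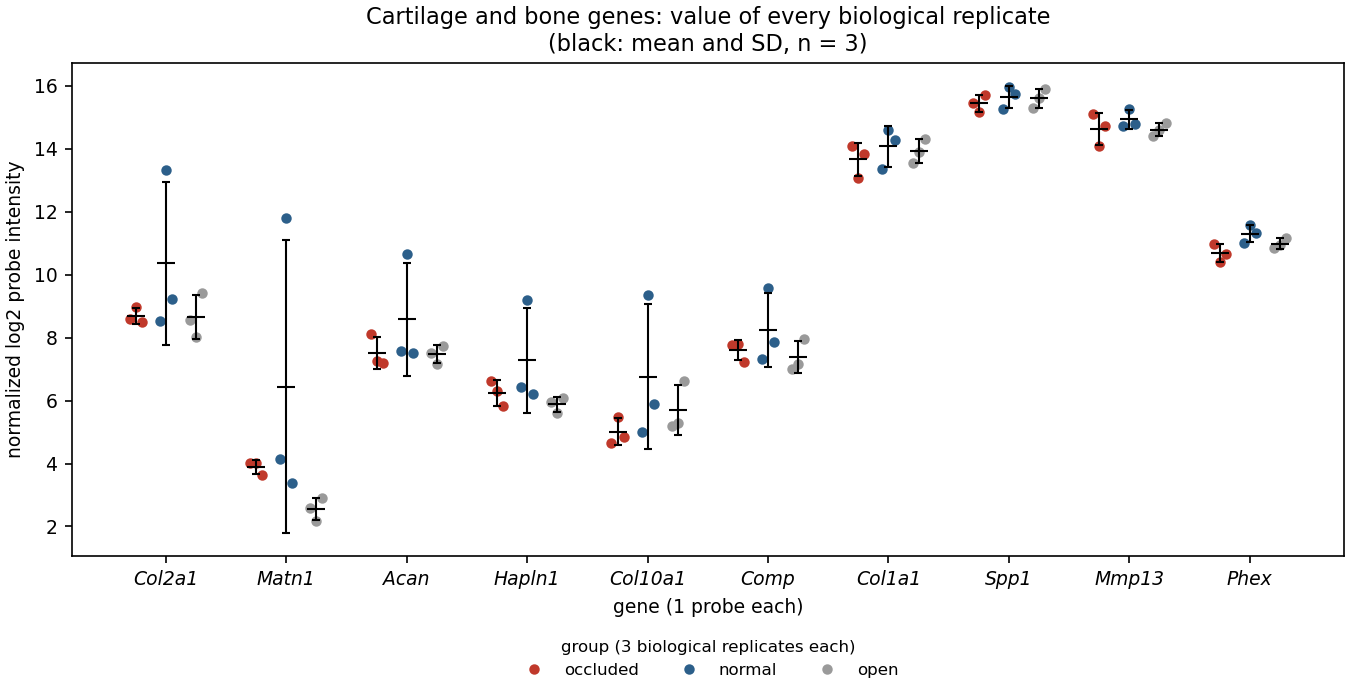
Normalized log2 intensity (vertical axis) of 10 cartilage and bone genes (horizontal axis) in the occluded, normal and open groups, with 1 point for each biological replicate and the mean and SD (n = 3) in black. Normal replicate 2 lies alone above all other samples for Col2a1 (13.33), Matn1 (11.79) and Acan (10.67), while Spp1 and Mmp13, genes of bone, are bright in every group.

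The comparison asked how mucosa deprived of odor differs from mucosa of mice that were never occluded. Of 29922 probes, 2 had a limma adjusted p under 0.05 (0.00668%), both higher on the occluded side and none lower. At an unadjusted p under 0.05 there were 861 probes (2.88%), 486 higher (1.62%) and 375 lower (1.25%). All 3 occluded values lay above the 3 normal ones for 1069 probes (3.57%) and below them for 926 (3.09%). The median SE of a difference was 0.288 and the smallest difference that passed was 2.11, with 3 samples a group. Among the representative probes of named genes, that is the brightest probe of each gene, none passed and 415 had an unadjusted p under 0.05 (2.49%). An exact permutation test of 3 samples against 3 cannot give a two-sided p below 0.1. The fit took its spread from all 3 groups, open samples included, and in a fit of occluded and normal values alone 0 probes passed. The genes below are therefore given by their values, and where a gene is said to lie lower or higher without a call, it did not pass.

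**Figure D2:**
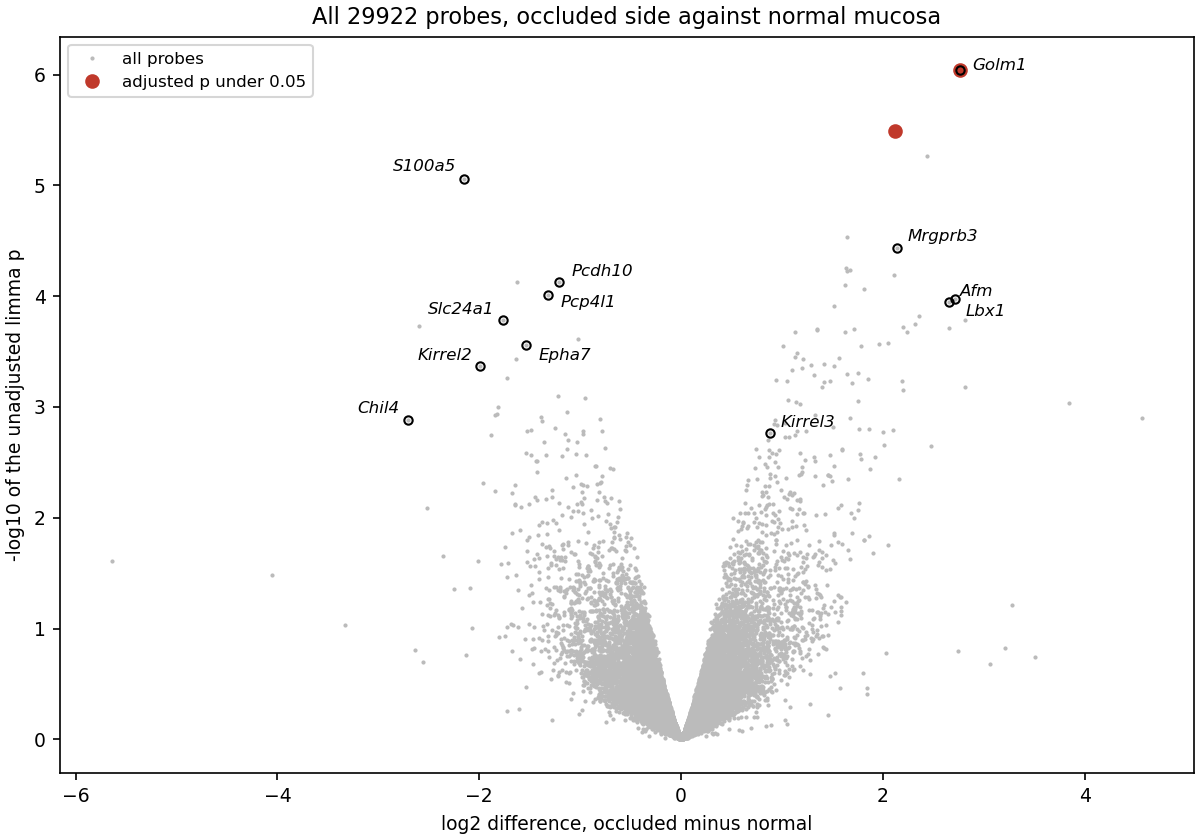
Difference between the occluded side and normal mucosa (log2, horizontal axis) against the -log10 of the unadjusted limma p (vertical axis), with 1 point for each of 29922 probes. The 2 probes in red passed an adjusted p of 0.05, and S100a5 at -2.15 has the smallest p among probes that lay lower.

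The calcium-binding protein gene S100a5, which marks odor-stimulated olfactory neurons, had the smallest p of all probes that lay lower. Its log2 intensity was 13.40, 13.76 and 14.27 on the occluded side and 15.99, 15.92 and 15.96 in normal mucosa. All occluded samples lay far below all normal ones, with no overlap. The difference was -2.15 ± 0.23 (limma adjusted p = 0.0656), a 4.43-fold lower level. The linear intensity of the 9 occluded arrays ran from 9547 to 28110 with a median of 14090, and that of the 9 normal arrays from 57760 to 68280 with a median of 64980. The probe was saturated on 7 of 9 normal arrays, so the normal level is a lower limit and the difference may be larger. Without normal replicate 1 the difference was -2.13 (adjusted p = 0.411), without normal replicate 2 it was -2.17 (adjusted p = 0.27), and without normal replicate 3 it was -2.15 (adjusted p = 0.127). S100a5 passed in 7 of 25 alternative analyses, and in 5 of the 22 that took biological replicates as the unit and probes singly.

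Pcp4l1, a relative of the calmodulin-binding neuronal protein Pcp4, measured 14.08, 13.72 and 14.01 on the occluded side and 15.26, 15.38 and 15.12 in normal mucosa. Its 2 groups lay more than 1 log2 unit apart with little spread inside either. The difference was -1.32 ± 0.19 (limma adjusted p = 0.193). Pcp4l1 passed in 5 of 25 alternatives, and in 3 of the 22 with biological replicates as the unit. Calb2, the calcium-binding protein calretinin of a part of the olfactory neurons, had the opposite sign. It measured 12.91, 13.63 and 13.77 on the occluded side against 12.89, 12.85 and 12.73 in normal mucosa, and differed by 0.61 ± 0.24 (adjusted p above 0.99 in limma). Occluded replicate 1 was level with the normal samples and the other 2 were higher. A further probe of Calb2 differed by 0.87 ± 0.21.

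**Figure D3:**
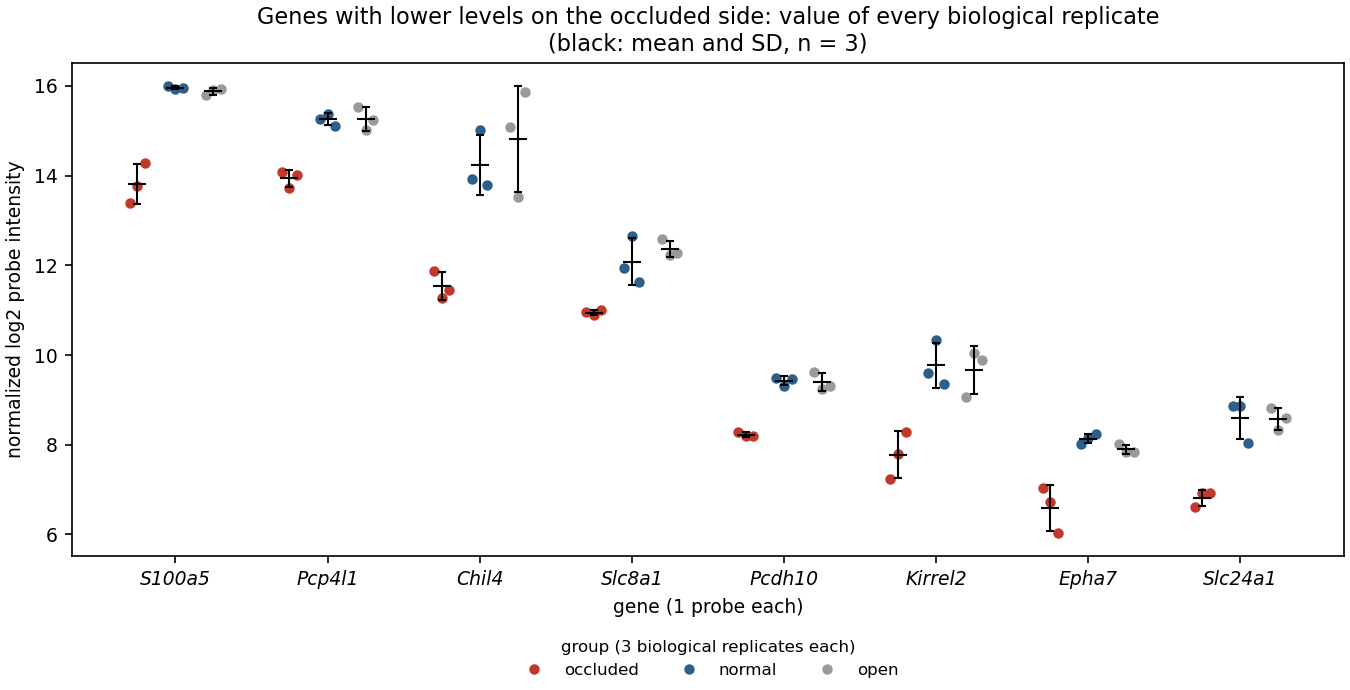
Normalized log2 intensity (vertical axis) of 8 genes (horizontal axis) in the occluded, normal and open groups, with 1 point for each biological replicate and the mean and SD (n = 3) in black. For each gene the 3 occluded samples lie below the 3 normal samples, as for S100a5 (13.40 to 14.27 against 15.92 to 15.99), and the open samples lie near the normal ones.

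The adhesion and guidance genes of olfactory axons went in both directions. Kirrel2, which lets axons of like activity adhere to each other, measured 7.24, 7.80 and 8.29 on the occluded side and 9.60, 10.34 and 9.36 in normal mucosa. The groups did not overlap, although the samples of each spread over about 1 log2 unit. The difference was -1.99 ± 0.36 (limma adjusted p = 0.278), and -1.71 without normal replicate 2, its highest sample. Kirrel3, of the same adhesion family and found in complementary sets of axons, measured 12.50, 12.78 and 12.90 on the occluded side and 11.93, 11.67 and 11.93 in normal mucosa. Here the occluded samples were all higher, by 0.88 ± 0.20 (adjusted p = 0.533 in limma).

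The ephrin family also held both signs. Epha7, a receptor of the ephrin family, measured 7.03, 6.73 and 6.03 on the occluded side and 8.03, 8.14 and 8.24 in normal mucosa. Every occluded sample was lower than every normal one, with a difference of -1.54 ± 0.26 (limma adjusted p = 0.229). Its further probe, below the noise limit on 4 of 9 arrays in each group, differed by -1.19 ± 0.29. Efna5, an ephrin ligand, measured 15.29, 15.52 and 15.79 on the occluded side and 14.78, 14.68 and 14.31 in normal mucosa. It was higher in all occluded samples, by 0.94 ± 0.25 (adjusted p = 0.845), and 1 occluded array was saturated. The further probe of Efna5 differed by 0.75 ± 0.23.

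Pcdh10, a protocadherin that mediates adhesion between like cells, measured 8.28, 8.19 and 8.18 on the occluded side and 9.49, 9.32 and 9.47 in normal mucosa. The 2 groups were separated by over 1 log2 unit while the samples of each were nearly level. Pcdh10 passed in 6 of 25 alternatives, and in 4 of the 22 with biological replicates as the unit. The difference was -1.21 ± 0.17 (limma adjusted p = 0.183). Without normal replicate 2 it was -1.26 and without normal replicate 3 it was -1.18. Over the list of axon guidance ligands and receptors, 32 genes were measured, and 1 lay higher and 1 lower at an unadjusted p under 0.05 (3.12% each, against 1.48% and 1.02% of all representative probes). The list's median difference was -0.07. It was -0.12 without normal replicate 1 and 0.000071 without normal replicate 2, and its sign turned in 3 of 25 alternatives.

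The promoters of S100a5, Pcdh10 and Kirrel2 are shown as examples of the 5 searched among genes that lay lower, and the data do not measure the promoters themselves. Each run is the 250 bases before the gene's start, 5′ to 3′ on the gene's strand, from RefSeq with build GRCm38.p6: chr3:90608272-90608521 on the plus strand for S100a5, chr3:45378148-45378397 on the plus strand for Pcdh10 and chr7:30457516-30457765 on the minus strand for Kirrel2.
S100a5: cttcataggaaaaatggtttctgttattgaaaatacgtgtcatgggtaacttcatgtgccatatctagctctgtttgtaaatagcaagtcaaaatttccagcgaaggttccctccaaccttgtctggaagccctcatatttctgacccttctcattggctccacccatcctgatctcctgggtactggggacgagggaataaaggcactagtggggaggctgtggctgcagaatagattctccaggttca
Pcdh10: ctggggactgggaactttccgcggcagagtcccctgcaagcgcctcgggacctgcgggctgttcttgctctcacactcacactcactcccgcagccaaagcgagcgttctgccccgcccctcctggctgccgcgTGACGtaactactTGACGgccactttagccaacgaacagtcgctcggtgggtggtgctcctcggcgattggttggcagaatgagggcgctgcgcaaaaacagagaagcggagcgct
Kirrel2: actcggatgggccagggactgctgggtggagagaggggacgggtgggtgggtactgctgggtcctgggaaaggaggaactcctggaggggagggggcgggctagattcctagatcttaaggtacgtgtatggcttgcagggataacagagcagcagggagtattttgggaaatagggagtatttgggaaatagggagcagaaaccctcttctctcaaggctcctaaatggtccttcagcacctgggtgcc
Capitals mark matches to 1 of 5 motifs that were searched on both strands. These were the cAMP response element half-site TGACG (in 17.8% of 32851 promoters of this length), the full element TGACGTCA (1.55%), which contains the half-site, the AP-1 site TGANTCA (6.75%), the early B-cell factor palindrome (0.779%) and the homeodomain core TAATTA (4.84%). The Pcdh10 promoter held the half-site at 2 places, from -116 to -112 and from -103 to -99 relative to the start. The S100a5 and Kirrel2 windows held no match, nor did those of Pcp4l1 and Epha7, which were searched as well, so that 1 of 5 promoters held a match.

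Of the exchangers that move calcium out of the cell, Slc24a1 and Slc8a1 lay lower. Slc24a1, a potassium-dependent sodium-calcium exchanger, measured 6.62, 6.93 and 6.92 on the occluded side and 8.87, 8.86 and 8.05 in normal mucosa. Its groups did not overlap, and normal replicate 3 was the lowest normal sample. The difference was -1.77 ± 0.28 (limma adjusted p = 0.203), and -2.04 without normal replicate 3 (adjusted p = 0.112). Slc8a1, a sodium-calcium exchanger of the plasma membrane, measured 10.95, 10.88 and 11.01 on the occluded side and 11.95, 12.65 and 11.63 in normal mucosa. The occluded samples were nearly level and the normal ones were all higher, with a difference of -1.13 ± 0.27 (adjusted p = 0.635). Its other probes differed by -1.64, -1.13 and -0.28, so that 1 of 4 probes did not share the size.

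Slc24a4, the exchanger that serves the olfactory cilia, did not share this direction and differed by 0.43 ± 0.22, and by 0.50 ± 0.34 on its further probe, with overlapping groups on both. Of 26 measured genes of the list of sodium-calcium exchangers and calcium handling, 2 lay higher (7.69%) and 4 lower (15.4%) at an unadjusted p under 0.05, against 1.48% and 1.02% of all representative probes. The members of this list were chosen with earlier results of these data known, so its shares are not independent of those results. The summed linear level of the list was 47402 to 62441 on the occluded side and 96154 to 104720 in normal mucosa. In a sum added after seeing the data, the 25 members other than S100a5 gave 36600, 39380 and 42690 on the occluded side and 39430, 42620 and 32540 in normal mucosa, which overlap. The median difference was 0.07, and it was -0.10 without normal replicate 3. Its sign turned in 2 of 25 alternatives, with a lowest value of -0.18. The 4 that lay lower were S100a5, Slc24a1, Slc8a1 and Cabp1, a calcium-binding protein of neurons (-0.71 ± 0.30), and the 2 that lay higher were Calb2 and Calb1, which binds calcium in the cytosol (0.74 ± 0.29).

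The list of odor-activity dependent genes of olfactory neurons, which holds many of the genes above and was chosen with earlier results of these data known, had 31 measured members. At an unadjusted p under 0.05, 6 lay lower (19.4%) and 4 higher (12.9%), against 1.02% and 1.48% of all representative probes. The 6 were S100a5, Pcdh10, Pcp4l1, Epha7, Kirrel2 and the leucine-rich repeat gene Lrrc3b (-0.74 ± 0.31, adjusted p above 0.99), and the 4 were Kirrel3, Efna5, Calb2 and H2bc21, a histone gene under its older symbol Hist2h2be on the array (1.05 ± 0.40). The median difference was -0.08, with 18 members below 0, and it lay between -0.16 and -0.0022 over 25 alternatives. Groups without overlap were found for 8 members that lay lower (25.8%) and 5 that lay higher (16.1%), against 3.01% and 3.85% of all representative probes. Without normal replicate 2, 6 members lay lower and 3 higher at that p, without normal replicate 3 they were 5 and 2, and without normal replicate 1 they were 5 and 3. H2bc21 measured 10.52, 11.38 and 11.21 on the occluded side and 9.94, 10.74 and 9.28 in normal mucosa, and its groups overlapped.

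**Figure D4:**
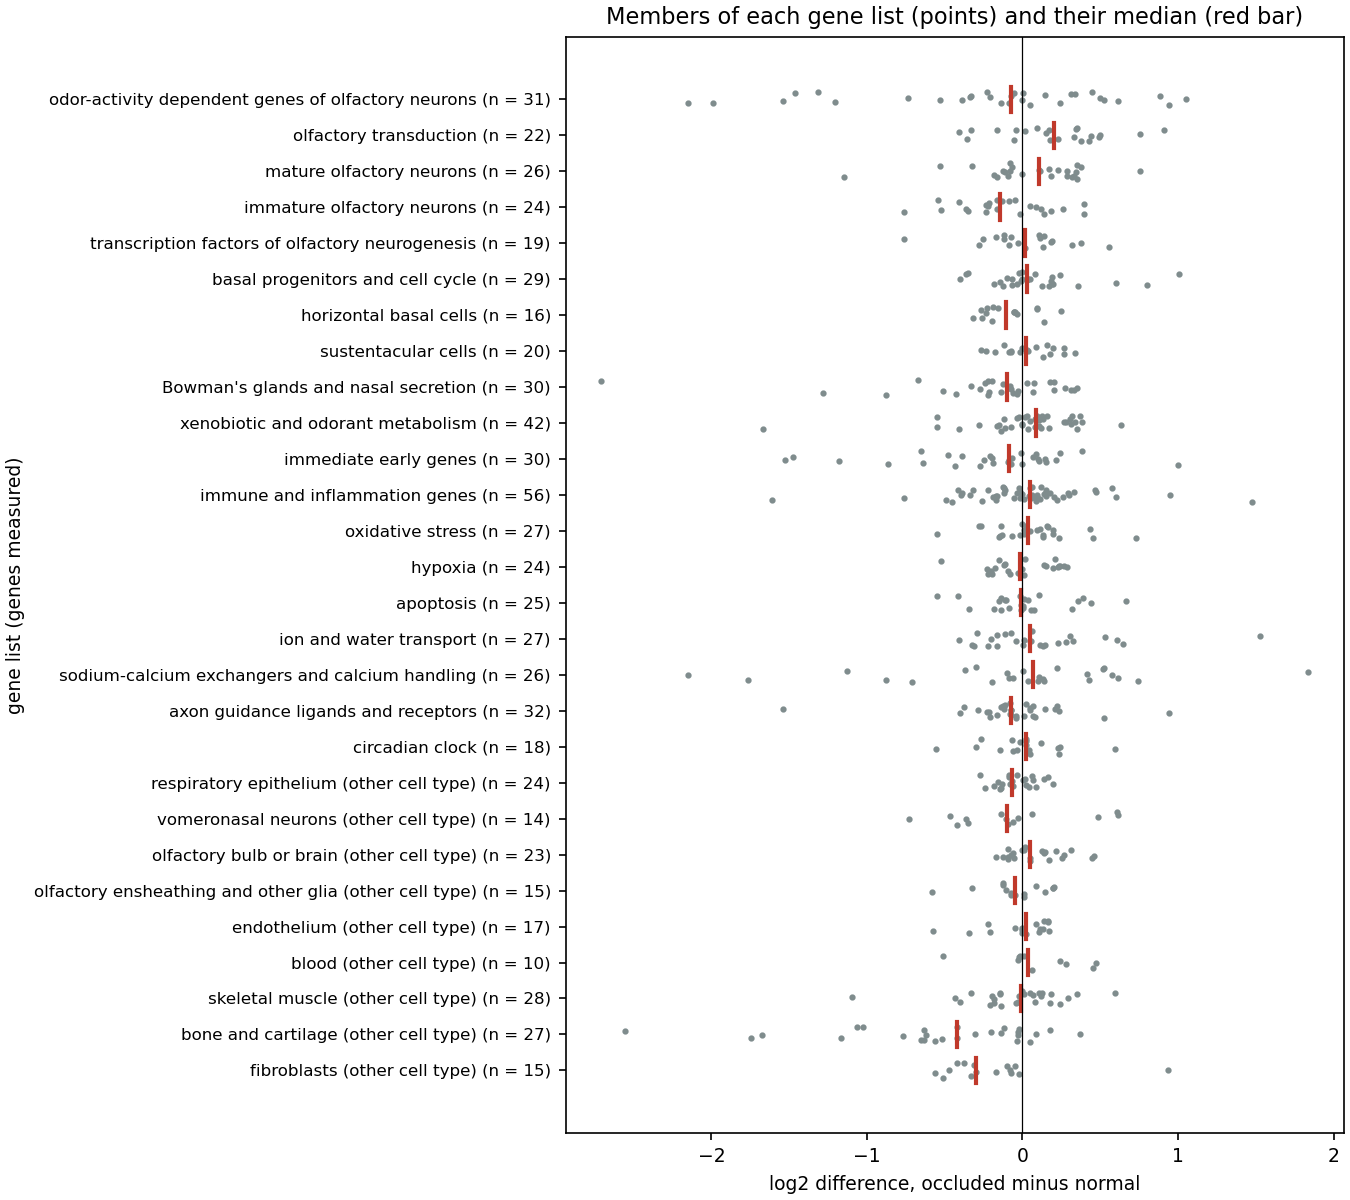
Difference between the occluded side and normal mucosa (log2, horizontal axis) of each measured member (grey points) of the gene lists (vertical axis, with the number of genes), and the list's median (red bar). The odor-activity dependent genes spread from -2.15 to 1.05 around a median of -0.08, while the bone and cartilage and the fibroblast lists lie to the left of 0.

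Among the genes of odor transduction, 1 lay higher at an unadjusted p under 0.05. Gnal, the G protein subunit coupled to odorant receptors, measured 13.68, 14.24 and 14.29 on the occluded side and 13.24, 13.59 and 13.13 in normal mucosa. All occluded samples were higher, by 0.75 ± 0.24 (limma adjusted p above 0.99), while its dimmer probe differed by 0.09 ± 0.44. Cnga2, the channel subunit, differed by 0.34 ± 0.22 and was saturated on 3 occluded arrays. Adcy3, the adenylyl cyclase, differed by 0.17 ± 0.16, with a 95% interval of -0.20 to 0.54. Of 22 measured transduction genes 16 lay above 0 (72.7%, against 52% of all representative probes), and the median difference was 0.20. It stayed above 0 in 25 alternatives, from 0.14 to 0.35, and was 0.17 without normal replicate 2. At an unadjusted p under 0.05 only Gnal (4.55% of the list) lay higher and none lower, against 1.48% and 1.02% of all representative probes.

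Of 26 genes of mature olfactory neurons, 14 lay above 0, and their median was 0.11. That median was 0.05 without normal replicate 2 and 0.18 without normal replicate 3, and 1 of 25 alternatives turned its sign. Groups without overlap were found for 5 members that lay higher (19.2%) and 1 that lay lower (3.85%), against 3.85% and 3.01% of all representative probes. The summed linear level of the 26 genes ran from 387590 to 424300 on the occluded side and from 355410 to 364320 in normal mucosa. Bright probes weigh most in this sum, among them Omp and Cnga2, which were saturated on arrays as given above. The list's median level in each sample was 13.0, 13.3 and 13.4 on the occluded side and 13.1, 13.5 and 13.1 in normal mucosa, which overlap. The 1 that lay lower was Dlg2, a scaffold protein of synapses, with 8.15, 8.87 and 8.49 on the occluded side and 9.58, 9.89 and 9.47 in normal mucosa. Dlg2 differed by -1.15 ± 0.30 (limma adjusted p = 0.809), but its further probe differed by -0.13. For 24 genes of immature neurons the median was -0.15, with 16 below 0 and none at an unadjusted p under 0.05. Gap43, a growth-cone protein of these cells, differed by -0.17 ± 0.46. Genes of horizontal basal cells, the reserve stem cells of the epithelium, had a median of -0.11 over 16 genes. Of these 12 lay below 0 (75%, against 48% of all representative probes), and none had an unadjusted p under 0.05. The median stayed below 0 in all 25 alternatives, which reuse the same samples. The list's median level in each sample was 9.38, 9.31 and 9.18 on the occluded side and 9.30, 9.23 and 9.30 in normal mucosa, which overlap. The keratin gene Krt14 of these cells differed by -0.26 ± 0.19. Sustentacular cell genes had a median of 0.02 over 20 genes and basal progenitor and cell cycle genes 0.03 over 29.

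Chil4, a chitinase-like protein secreted by nasal epithelium and glands, had the lowest difference of all list members. It measured 11.87, 11.27 and 11.45 on the occluded side and 13.92, 15.01 and 13.79 in normal mucosa. All occluded samples lay well below every normal one. The difference was -2.71 ± 0.58 (limma adjusted p = 0.49), a 6.54-fold lower level, and -2.32 without normal replicate 2, the highest normal sample. Its second probe differed by -2.51 ± 0.74. Among 30 genes of nasal secretion and of Bowman's glands, Chil4 was alone at an unadjusted p under 0.05 (3.33%, against 1.02% of all representative probes that lay lower). The median of that list was -0.10, and it was 0.11 without normal replicate 2. Obp2a, an odorant-binding protein, differed by -0.88 ± 1.12 with overlapping groups, and was saturated on 3 arrays of each group.

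Immediate early genes, which are switched on within minutes of cell activity, had a median of -0.09 over 30 genes, with 20 below 0, and stayed below 0 in 25 alternatives. At an unadjusted p under 0.05, 2 lay lower (6.67%, against 1.02% of all representative probes) and none higher. They were the nuclear receptor gene Nr4a1 (-1.52 ± 0.54) and Fosb, a partner of the AP-1 complex (-1.18 ± 0.43). Nr4a1 measured 4.96, 5.61 and 4.64 on the occluded side and 5.56, 7.05 and 7.17 in normal mucosa, so that normal replicate 1 overlapped the occluded samples. Without normal replicate 2 neither had such a p. Fos, the AP-1 subunit used most often as an activity marker, differed by -0.87 ± 0.40, and its further probe by -0.01. Npas4, an activity-dependent transcription factor of neurons, differed by -0.65 ± 0.30 without overlap of the groups.

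The median of 56 immune and inflammation genes was 0.05. Ccl4, a chemokine of macrophages, measured 8.45, 7.77 and 8.10 on the occluded side and 7.24, 7.04 and 7.19 in normal mucosa, and differed by 0.95 ± 0.21 (limma adjusted p = 0.516) without overlap. Cxcl2, a neutrophil chemokine, differed by -0.76 ± 0.32, but 6 of 9 occluded and 2 of 9 normal arrays lay below the noise limit. Il33, an epithelial alarmin, differed by -0.39 ± 0.18. Genes of hypoxia, oxidative stress and apoptosis had medians of -0.02, 0.04 and -0.0091, and xenobiotic and odorant metabolism genes 0.09 over 42 genes. Markers of respiratory epithelium, olfactory bulb or brain, endothelium, glia, blood and skeletal muscle had medians between -0.06 and 0.05, and for each of these at least 1 alternative turned the sign. Vomeronasal neuron genes lay below 0 for 10 of 14 members (median -0.10). The 2 of them without overlap both lay higher (14.3%, against 3.85% of all representative probes). They were the histocompatibility gene H2-M9 (0.62 ± 0.27) and Trpc2, the transduction channel of these neurons (0.48 ± 0.22). Genes of ion and water transport had a median of 0.05, and transcription factors of neurogenesis and circadian clock genes each had one of 0.02. The 88 vomeronasal receptors had a median of 0.01, and the 1 trace amine receptor measured differed by 0.08.

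Of the 689 measured olfactory receptor genes, 387 lay above 0, with a median of 0.03. At an unadjusted p under 0.05, 20 lay higher (2.9%) and 9 lower (1.31%), against 1.48% and 1.02% of all representative probes. The median was -0.04 without normal replicate 2 and 0.12 without normal replicate 1, and its sign turned in 2 of 25 alternatives. Olfr31 measured 9.19, 8.77 and 9.03 on the occluded side and 7.87, 7.94 and 8.53 in normal mucosa, and differed by 0.88 ± 0.23 (limma adjusted p = 0.79). Olfr1151 lay lower, with 5.39, 5.63 and 5.13 against 6.47, 5.96 and 6.17, a difference of -0.82 ± 0.22 (adjusted p = 0.923). Receptors share sequence, and 17 of the 689 lay below the noise limit on all 18 arrays, so single receptors are uncertain.

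The probes that passed lay higher. A probe of Golm1, which encodes a membrane protein of the Golgi, and the unnamed probe mMC019610 are the 2 that passed, and both were chosen after their values were seen. The Golm1 probe measured 9.825, 9.996 and 9.999 on the occluded side and 6.95, 6.99 and 7.58 in normal mucosa. It rose by 2.76 ± 0.23 (limma adjusted p = 0.0273), with no overlap. The brighter probe of Golm1, however, differed by -0.98 ± 0.22, with intensities of 704 to 1116 on the occluded side and 1122 to 2185 in normal mucosa. The 2 probes of the gene thus had opposite signs.

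The probe mMC019610 measured 9.50, 9.04 and 9.47 on the occluded side and 7.34, 6.96 and 7.36 in normal mucosa. It rose by 2.11 ± 0.20 (limma adjusted p = 0.0484). Without normal replicate 3 the Golm1 probe was the only one to pass (adjusted p = 0.0355), and with any other normal or occluded sample left out none passed. Among named genes that lay higher, small p-values were those of Mrgprb3, a receptor of the Mas-related family, with 10.09, 9.40 and 9.53 on the occluded side and 7.32, 7.68 and 7.60 in normal mucosa (2.14 ± 0.28, adjusted p = 0.182), and of Afm, a vitamin E-binding plasma protein, with 8.37, 7.88 and 8.45 against 5.13, 5.16 and 6.43 (2.65 ± 0.40, adjusted p = 0.201). Both were without overlap, and normal replicate 3 was the highest normal sample for Afm. Lbx1, which encodes a homeodomain protein of migrating muscle precursors, differed by 2.71 ± 0.41, with 2 of 9 normal arrays below the noise limit. The other named genes of small p were Trub1, a pseudouridine synthase (1.64 ± 0.23), the lipid kinase gene Pip5k1b (1.62 ± 0.23), the amino acid transporter gene Slc36a3 (2.36 ± 0.37), the zinc finger gene Zfp157 (2.31 ± 0.37), Rai1 (1.35 ± 0.22), Ess2 (1.63 ± 0.27) and Spi1, a transcription factor of myeloid cells (1.13 ± 0.19).

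At an unadjusted p under 0.001, 56 probes lay higher (0.187% of 29922) and 13 lower (0.0434%). Of the 56, 38 had a gene symbol, and 13 of these genes had a further readable probe. None of these 13 reached 50% of the difference of the first probe, and the median was -0.03 over 14 further probes against 1.46 for the probes first shown. Of the 13 probes that lay lower, 12 had a symbol, 4 had a further readable probe, and 3 of these 4 reached 50%. The 3 were Epha7, Slc8a1 and Trim45, a ubiquitin ligase (-0.95 ± 0.19, further probe -0.94), while Cntn4, a cell adhesion molecule whose first probe was below the noise limit on 4 of 9 occluded arrays, did not (-1.72, further probe -0.29). The median was -1.03 over 6 further probes against -1.64. Normal replicate 3 was the highest normal sample for 39 of the 56 probes that lay higher and for 3 of the 13 that lay lower. The share over all probes was not computed, and these probes were picked by their p in the same samples. With normal replicate 1 left out, 35 probes lay higher and 17 lower at that p, with normal replicate 2 left out they were 26 and 12, and with normal replicate 3 left out they were 48 and 14.

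**Figure D5:**
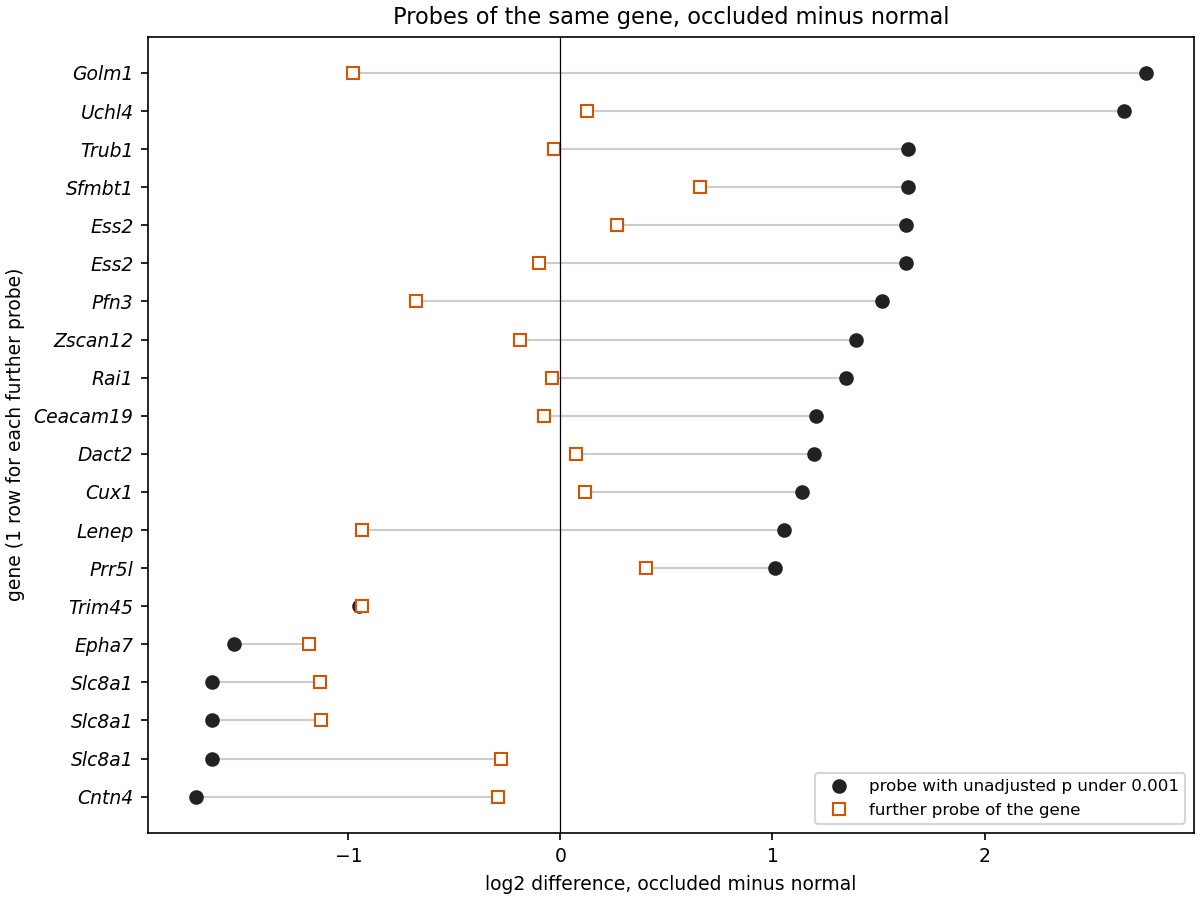
Difference between the occluded side and normal mucosa (log2, horizontal axis) of a probe with an unadjusted p under 0.001 (black circles) and of each further probe of the same gene (orange squares), with 1 row for each further probe. The squares of genes that lay higher run from -0.98 to 0.66, as for Trub1 (1.64 and -0.03), whereas those of Epha7 (-1.54 and -1.19) and Trim45 (-0.95 and -0.94) stay below 0.

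Further genes with small p-values that lay lower were Dleu7 (-1.22 ± 0.24), the secretoglobin Scgb3a2 (-1.02 ± 0.17), which was below the noise limit on 6 of 9 occluded and 4 of 9 normal arrays, and Spag17, a protein of the ciliary axoneme. Spag17 lay below the limit on all 9 occluded and 7 of 9 normal arrays, and no fold is given.

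The open side of the occluded mice is set beside these values, in comparisons that share samples with the one above and are not independent of it. The difference of the open side from normal mucosa was -0.08 for S100a5, 0.00 for Pcp4l1, -0.03 for Pcdh10, -0.10 for Kirrel2, -0.01 for Slc24a1 and 0.58 for Chil4. The differences of the occluded side from the open side were -2.07, -1.32, -1.18, -1.89, -1.75 and -3.29 for the same genes in that order. The open samples of S100a5 measured 15.79, 15.91 and 15.93, next to the normal samples and above all occluded ones. Over all probes, 66 passed in occluded against open (0.221%) and none in open against normal, where 477 had an unadjusted p under 0.05 and the smallest limma adjusted p was 1. The median SE was 0.225 for the 2 sides of the occluded mice and 0.288 for the occluded side against normal mucosa. The fit applied 1 consensus correlation of 0.389 to every probe, for samples paired by title number. That setting fixes how these SEs relate, so they do not measure a gain in precision, and the pairing by number is uncertain.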

How the data were processed

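Probe intensity on a linear scale was deposited by the authors for Cy5-labelled amplified RNA with 1 sample on each array, per the labels' protocols. No label names the scanner, the background method or the normalization. The members and gene lists were chosen with earlier results of these data known.

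Values at or below 0 were set to 0.912. Array medians spread over 1.15 log2 units, so quantile normalization was applied before averaging the repeat arrays of a biological replicate. The fit used limma 3.58.1 (statmod 1.5.0, R 4.3.3) on 9 values of 3 groups, and took the mouse as random block, with a consensus correlation of 0.389. The design text states that open and occluded came from the same individuals, and samples of 1 title number were read as 1 mouse. Tests were two-sided, with Benjamini-Hochberg adjustment over 29922 probes. Saturated means at or above 99.5% of an array's highest value.

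Of the probes, 21020 have 1 symbol, 0 several and 8902 are unnamed here. Of 16637 symbols, 16595 were found in RefSeq (GRCm38.p6) and 2728 were updated. The brightest probe stands for a gene, for 3566 genes with more than 1. Genes were named by rule: since fewer than 5 named genes passed in either direction, the 10 representative probes of smallest p in each direction without predicted transcripts, up to 4 members of smallest p of each of 31 lists, and a fixed set. Golm1, mMC019610, 4930505N22Rik, Cntn4, Cabp1, Calb1, Obp2a, Gap43 and Cyp2g1 were named outside it, after their values were seen. So were the cartilage and bone genes Col2a1, Matn1, Acan, Spp1 and Mmp13. The fit was tested on simulated data. Alternatives covered block, averaging, title reading, normalization, dim probes, prior and left-out replicates.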

Additional observations from a re-analysis of the deposited data

How the results depend on the processing

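The count of 2 probes was 3 with no replicate block and 0 with the title number as a fixed replicate block, over 9 values (1338 with an unadjusted p under 0.05) and over 6 (1234). That equal numbers pair occluded with normal mice is not stated, and the deviations of same-numbered samples correlated at 0.353, 0.067 and 0.0015. For occluded and open samples, which the main fit pairs by number, the same correlations were 0.516, -0.0044 and 0.142. Occluded replicate 2 with open replicate 3 gave 0.386, and occluded replicate 3 with open replicate 2 gave 0.265, so the pairing by number is uncertain. The count was 0 with occluded and normal values alone (942), without normalization (449), with a floor at 16 (930) and when a gene's probes were averaged (741), and 3 with median centring. It was 5 with the median of arrays (4 higher, 1 lower), 24 with an offset of 50 (20 and 4), 13 without the dimmest 30% of probes (10 and 3), 16 without the dimmest 50% (12 and 4), 4 without probes mostly below the noise limit and 26 with a trend and robust prior (21 and 5). Fits that count more values gave 117 for 27 arrays with the biological replicate as random block (73 and 44) and 803 with the letter read as the replicate (398 and 405), where repeat arrays act as samples. Leaving out 1 occluded or normal replicate gave 0 to 1 (743 to 1165 with an unadjusted p under 0.05). Leaving out 1 title number in all groups gave 0 (666 to 1509). The cause was not tested. In 22 alternatives with the biological replicate as the unit, 12 probes that lay higher and 4 that lay lower passed in at least 3. The Golm1 probe passed in 9, and mMC019610 and the predicted transcript 4930505N22Rik (2.44, limma adjusted p = 0.0541 in the main fit) in 7 each. Mrgprb3, Trub1 and Pip5k1b, which also lay higher, passed in 4 each. Of those that lay lower, S100a5 passed in 5, Pcdh10 in 4 and Pcp4l1 in 3. No named value that was called changed sign. Saturation limits S100a5 and the brighter Omp probe, and dim signal limits Spag17, Scgb3a2 and Cxcl2.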
